A study of Mus musculus with 12 samples.

Results

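The 49 genes described here encode transcription factors that mark or specify classes of spinal interneurons. They were chosen by gene symbol from a list of such factors, with earlier results of these data known. All 49 were found among the 40912 gene IDs of the count table. RNA of the spinal cord was sequenced from mice at postnatal day 21, in 12 libraries that form 4 groups of 3. All mice carried a bacTRAP transgene, which puts an EGFP-tagged ribosomal protein Rpl10a on the ribosomes of chosen cells. One strain, Tg(Chat-EGFP/Rpl10a)DW167Htz, drives the tag from Chat sequences, and Chat is expressed in motor neurons and in other cholinergic neurons. The other strain, Tg(Snap25-EGFP/Rpl10a)JD362Jdd, drives it from Snap25 sequences, which are active in neurons in general. In each strain, RNA was taken from the cord before immunopurification (the inputs, PreIP_Chat and PreIP_Snap25) and from the ribosomes pulled down by the tag (TRAP_Chat and TRAP_Snap25). The labels give neither sex nor a line without a transgene.

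Spinal interneurons arise from progenitor domains stacked along the dorsoventral axis, and each domain gives rise to a class that is recognised by a code of homeodomain and other factors. Ventral classes such as V1, marked by En1, and V0, marked by Evx1 and Evx2, shape the rhythm and alternation of walking. Dorsal classes process touch, itch and pain, and split into inhibitory neurons that need Pax2 and excitatory neurons that need Tlx3 and Lmx1b. A further layer, with the nuclear factor I, Zfhx and Onecut families, divides neurons of many classes by when they are born and by where they settle. Motor neurons use other factors, such as Isl1 and Mnx1, and most of the genes described here are not part of the adult motor neuron code. A pulldown of cholinergic ribosomes and one of ribosomes from all neurons therefore sample these classes differently. In bulk libraries of this kind, fewer cells of a class and less RNA per cell cannot be told apart.

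Library totals ran from 10149346 to 20521699 counts, and 3 counts corresponded to between 0.156 and 0.305 CPM, the unit used for levels, which are read counts scaled to a common library size. Chat was 105.8 to 187.3 CPM in TRAP_Chat and 14.0 to 30.2 CPM in the other groups. Errors are SE for log2 fold changes and SD for levels, with 3 libraries a group. Summed levels of 10 oligodendrocyte markers ran from 18339 to 24038 CPM in PreIP_Chat and from 2315 to 6236 CPM in TRAP_Chat. They ran from 17676 to 23078 CPM in PreIP_Snap25 and from 1841 to 5557 CPM in TRAP_Snap25, and none of the 10 was at 0 throughout a group. TRAP_Chat replicate 1 held the 6236 CPM and mitochondrial ribosomal RNA at 6.67% of its counts, against 0.303% and 0.358% in the other 2 libraries of its group. TRAP_Snap25 replicate 3 held the 5557 CPM. Mitochondrial ribosomal RNA made up 23.2% to 26.2% of counts in PreIP_Chat, 25.3% to 40.7% in PreIP_Snap25 and 0.209% to 0.680% in TRAP_Snap25. Inputs and pulldowns thus differ in composition. Of the 46 members that were tested, 19 had their highest level among the TRAP_Chat libraries in replicate 1, 10 in replicate 2 and 17 in replicate 3.

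Promoter sequences are shown for 5 members whose levels differed between the pulldowns in every setting tried and for which RefSeq gives 1 start site. They are the 250 bases before the start on GRCm38.p6, all from the plus strand and written 5′ to 3′. En1 was read from chr1:120602237-120602486, Otp from chr13:94875386-94875635, Nfia from chr4:97581693-97581942, Bcl11a from chr11:24080445-24080694 and Dmrt3 from chr19:25610287-25610536. Capitals mark matches, on either strand, to the TATA box core TATAAA, to the CCAAT box, which reads ATTGG when reversed, to the GC box core GGGCGG, which reads CCGCCC when reversed, or to the homeodomain core TAATTA.
En1: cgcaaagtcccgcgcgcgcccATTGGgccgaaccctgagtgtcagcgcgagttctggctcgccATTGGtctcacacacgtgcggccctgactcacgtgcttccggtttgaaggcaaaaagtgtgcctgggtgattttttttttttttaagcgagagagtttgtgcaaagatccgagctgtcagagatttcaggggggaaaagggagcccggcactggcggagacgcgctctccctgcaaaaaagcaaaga
Otp: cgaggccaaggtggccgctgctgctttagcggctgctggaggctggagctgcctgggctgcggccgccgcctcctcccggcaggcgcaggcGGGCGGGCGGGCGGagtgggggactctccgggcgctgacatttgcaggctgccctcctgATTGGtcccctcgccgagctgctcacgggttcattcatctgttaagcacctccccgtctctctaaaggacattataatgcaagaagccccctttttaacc
Nfia: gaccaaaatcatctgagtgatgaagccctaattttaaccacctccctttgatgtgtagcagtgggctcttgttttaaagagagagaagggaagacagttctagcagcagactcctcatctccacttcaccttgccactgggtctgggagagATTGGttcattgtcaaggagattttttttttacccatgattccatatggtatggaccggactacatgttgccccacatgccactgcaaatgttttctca
Bcl11a: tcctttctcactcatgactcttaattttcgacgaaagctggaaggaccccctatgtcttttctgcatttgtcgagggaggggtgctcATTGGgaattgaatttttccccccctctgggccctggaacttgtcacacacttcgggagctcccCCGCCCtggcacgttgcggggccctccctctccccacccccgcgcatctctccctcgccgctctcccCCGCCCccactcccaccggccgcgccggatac
Dmrt3: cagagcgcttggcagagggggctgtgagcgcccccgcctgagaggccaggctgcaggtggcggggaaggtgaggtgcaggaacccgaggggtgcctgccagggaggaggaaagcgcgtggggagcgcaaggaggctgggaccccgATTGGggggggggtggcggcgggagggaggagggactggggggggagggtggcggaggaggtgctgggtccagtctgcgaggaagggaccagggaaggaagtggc
All 5 windows hold a CCAAT match, with 2 in En1. Otp holds 3 GGGCGG matches that overlap one another, Bcl11a holds 2, and none of the 5 windows holds TATAAA or TAATTA. The number of CpG steps was 19 in En1, 18 in Otp, 16 in Bcl11a, 13 in Dmrt3 and 1 in Nfia. Nfia is the one shown that was higher in the Chat pulldown.

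RefSeq promoters were matched for 35 of the 49 members, with 53 windows, and were set beside 32851 windows of all genes. GGGCGG was found in 50.9% of the members' windows and in 32.7% of all windows. CCAAT was found in 32.1% and 33.8%, TATAAA in 9.43% and 12.4%, and TAATTA in 3.77% and 4.84%. The median number of CpG steps was 14 in the members' windows and 6 in all windows, and the median GC content was 60.8% and 52.4%. These matches describe letters in the windows and not sites in use.

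The members that passed the test were mostly lower in the Chat pulldown. Against its own input, TRAP_Chat held 26 of the 46 tested members at a lower level and none at a higher level (edgeR quasi-likelihood test, two-sided, Benjamini-Hochberg adjusted p under 0.05 over 15905 genes). Of all tested genes 14.3% were lower and 12.6% higher in that comparison. The members' median log2 fold change was -1.48, and that of all tested genes was -0.06. For the count of 0, 1 member was higher at an unadjusted p under 0.05, and DESeq2 and limma voom also called 0. The members' summed level was 1300, 1353 and 1351 CPM in PreIP_Chat and 747, 790 and 801 CPM in TRAP_Chat. A single member, Maf, was above its input in all libraries, and 29 lay below it in all libraries, where 21.8% and 26.1% of all tested genes did so. Of the 26 calls, 17 were kept in all 20 alternative settings, and Foxp2, Lbx1, Lmx1b, Tlx3, Lhx1, Lhx5, Otp and Skor1 lost theirs in at least 1. Evx1 was called in every setting that tested it and did not pass the low-count filter when only the 6 libraries compared were fitted. Without PreIP_Snap25 replicate 3, 1 member was higher. That library is outside this comparison and enters the fit through the spread, the low-count filter and the scaling.

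In the Snap25 pulldown few members were called. TRAP_Snap25 held 5 of 46 members lower than its input, or 10.9%, where 12.7% of all tested genes were lower. None was higher, where 9.69% of all tested genes were, although 3 were higher at an unadjusted p under 0.05. DESeq2 called 2 higher, En1 and Dmrt3, and limma voom called the same 2. The edgeR count was 3 without TRAP_Chat replicate 1, 2 without either of the other TRAP_Chat libraries and 1 without TRAP_Snap25 replicate 1 or 2. Levels lay wholly above the input for 5 members and wholly below it for 9, where 16.6% and 21.4% of all tested genes did so. The median log2 fold change was -0.07 for the members and 0.00 for all tested genes. Summed levels were 1471, 1694 and 1006 CPM in PreIP_Snap25 and 878, 952 and 829 CPM in TRAP_Snap25, so that the groups did not overlap. The fall of this sum came in large part from the 5 called members. Mean levels of Zeb2 went from 208 to 34.7 CPM, of Nfia from 175 to 75.8 and of Zfhx3 from 107 to 49.0. Those of Nfib went from 55.3 to 20.3 CPM and of Onecut2 from 19.3 to 5.38.

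The pulldowns were then compared directly, which sets cholinergic neurons beside neurons in general. TRAP_Chat held 16 members lower and 2 higher than TRAP_Snap25, where 2.77% of all tested genes were lower and 3.97% higher. The 16 make up 34.8% of the tested members and the 2 make up 4.35%. The median log2 fold change was -0.97, against 0.01 over all tested genes. Levels did not overlap between the 2 groups for 17 members that were lower and 3 that were higher, where 9.47% and 10.3% of all tested genes did so. Of the 18 calls, 7 were kept in all 20 alternative settings, namely En1, Dmrt3, Otp, Pax2, Bcl11a, Nfia and Nfib. The number of lower members was 9 without TRAP_Chat replicate 2, and 5 when only the 6 pulldown libraries were fitted. Of all tested genes 266 of 16550 and 145 of 14111 were lower in those fits, against 441 of 15905 in the reported fit.

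**Figure D1:**
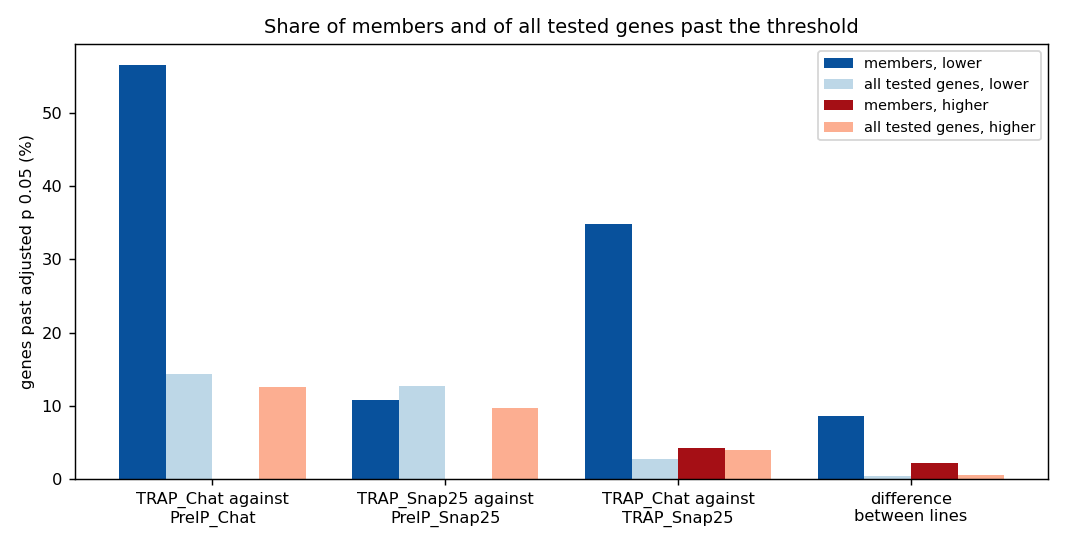
Bars give the percentage of genes past adjusted p 0.05 in each direction, for the 46 tested members and for all 15905 tested genes, in 4 comparisons. Lower members reach 56.5% in TRAP_Chat against its input and 34.8% in TRAP_Chat against TRAP_Snap25, while in TRAP_Snap25 against its input they are at 10.9%, below the 12.7% of all tested genes.

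**Figure D2:**
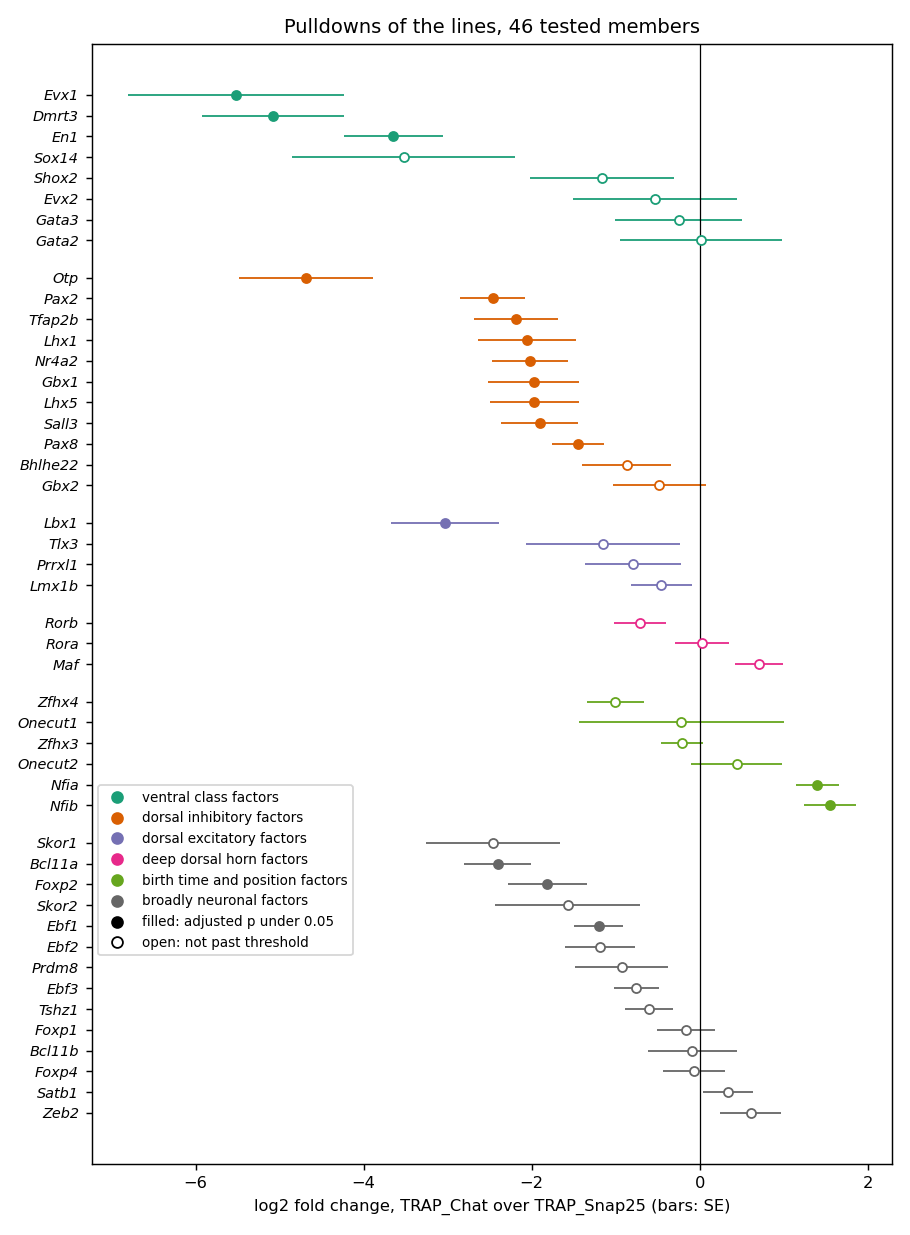
Each point is the log2 fold change of TRAP_Chat over TRAP_Snap25 for 1 member, with its standard error, in 6 role lists, and filled points passed the threshold. All 11 dorsal inhibitory factors lie left of 0 and 9 are filled, whereas Nfia and Nfib are the filled points on the right.

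The members were placed in 6 role lists from general knowledge, but with earlier results of these data known. The counts per list therefore describe these data and are not an independent test. Several act in more than 1 class, among them Lbx1, Otp and Bhlhe22, and Dmrt3, of a dorsal-born class, stands among the ventral factors. The lists thus order the text and do not define cell types. The shares of all tested genes stand beside the counts of every list below. Lower were 14.3% in TRAP_Chat against its input, 12.7% in TRAP_Snap25 against its input and 2.77% between the pulldowns. Higher were 12.6%, 9.69% and 3.97%.

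Among the ventral class factors 8 of 9 were tested. In TRAP_Chat against its input 3 fell, edgeR called none in TRAP_Snap25 against its input, where En1 and Dmrt3 lay wholly above, and 3 were lower in TRAP_Chat than in TRAP_Snap25. En1, the engrailed homeodomain factor of V1 interneurons, was 0.916, 2.60 and 1.96 CPM in PreIP_Chat and 0.989, 0.529 and 0.364 CPM in TRAP_Chat. It was 3.68, 2.59 and 2.54 CPM in PreIP_Snap25 and 6.98, 7.31 and 9.46 CPM in TRAP_Snap25. Every TRAP_Snap25 library thus lay above all other libraries, and every TRAP_Chat library lay below the lowest PreIP_Snap25 library. Between the pulldowns En1 was 12.5-fold lower in TRAP_Chat (log2 fold change -3.64 ± 0.59, edgeR adjusted p = 0.00123). Against the inputs the log2 fold change was -1.54 ± 0.56 in the Chat line and 1.42 ± 0.53 in the Snap25 line, and edgeR called neither (adjusted p = 0.0527 and 0.0611). The first was called by DESeq2 (adjusted p = 0.0248) and by edgeR without PreIP_Chat replicate 1 (0.038) or TRAP_Chat replicate 1 (0.0264). The second was called by DESeq2 (adjusted p = 0.0208) and limma voom (0.0242). It was also called by edgeR with only the groups compared (0.0399) or without TRAP_Chat replicate 1 (0.0405).

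Dmrt3, a DM domain factor of a dorsal-born commissural class that takes part in locomotor circuits, showed the largest difference between the lines among members that were called there. It was 3.05, 2.27 and 1.48 CPM in PreIP_Chat and 0, 0.0756 and 0.416 CPM in TRAP_Chat. It was 2.75, 1.62 and 1.30 CPM in PreIP_Snap25 and 5.80, 4.8 and 7.93 CPM in TRAP_Snap25. The groups did not overlap in either pulldown comparison, with the Chat pulldown below its input and the Snap25 pulldown above. Dmrt3 fell 12.4-fold in TRAP_Chat against its input (log2 fold change -3.64 ± 0.81, edgeR adjusted p = 0.00408) and was 33.8-fold lower than in TRAP_Snap25 (-5.08 ± 0.84, adjusted p = 0.00154). Without TRAP_Chat replicate 3 the latter log2 fold change was -7.18 (edgeR adjusted p = 0.000997). In 2 of the 3 TRAP_Chat libraries Dmrt3 was at or below 3 counts, so both folds depend on the few counts there.

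Evx1, the even-skipped homeodomain factor of V0 interneurons, had 1 count over the 3 TRAP_Chat libraries, 66 counts over PreIP_Chat and 59 counts over TRAP_Snap25. Its level in TRAP_Snap25 was 69.4 times that in TRAP_Chat, with an exact 95% counting interval of 12 to 2786. In PreIP_Chat it was 2.81, 0.277 and 0.794 CPM, so that 1 library held most of its input counts, and in TRAP_Snap25 it was 1.69, 1.84 and 0.305 CPM. edgeR called it in both comparisons (adjusted p = 0.0051 against the input and 0.0157 between the pulldowns). The second call was lost without TRAP_Chat replicate 2 (edgeR adjusted p = 0.0557) or replicate 3 (0.0586). The antisense gene Evx1os overlaps 73 bases of its exons and had 82 counts in all, and the strand setting is not given.

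Sox14, a factor of V2 and other interneurons, had 2 counts over TRAP_Chat and 82 over PreIP_Chat, a ratio of 37.4 with a counting interval of 10 to 314. In PreIP_Chat it was 2.44, 1.33 and 0.952 CPM, wholly above its 0.495, 0.194 and 0.326 CPM in PreIP_Snap25, though edgeR did not call that difference. The ratio thus depends on which input is used. Sox14 fell in TRAP_Chat against its input (edgeR adjusted p = 0.00985) and was not called between the pulldowns (adjusted p = 0.127). Sim1, a marker of V3 interneurons, was too low to be tested. It had 0 counts in every TRAP_Chat library and 15, 5 and 0 in TRAP_Snap25, so the groups overlapped. The sum of 20 in TRAP_Snap25 was at least 7.84-fold higher when 3 counts are taken as the limit over the group. Most of that sum came from 1 library. The other ventral factors were not called by edgeR in these comparisons. Gata2 and Gata3, of V2b interneurons, had log2 fold changes of 0.02 and -0.25 between the pulldowns, Evx2 had -0.53, and Shox2, which overlaps 153 exon bases of the more abundant Rsrc1 on the other strand, had -1.17. Gata2 had -1.88 and -1.95 against the Chat and the Snap25 input (edgeR adjusted p = 0.167 and 0.177), and limma voom called the second (adjusted p = 0.0363), as edgeR did without TRAP_Snap25 replicate 3 (0.0192). Without TRAP_Chat replicate 1 edgeR called Gata2 (adjusted p = 0.0384) and Shox2 (0.0171) lower than in the Chat input, and Shox2 lower than in TRAP_Snap25 (0.0196).

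Of the 11 tested dorsal inhibitory factors 9 fell in TRAP_Chat against its input and 9 were lower than in TRAP_Snap25. Of all tested genes 14.3% and 2.77% did so. In TRAP_Snap25 against its input edgeR called none, although Otp lay wholly above and Sall3 wholly below. Their summed level per kb of exon was 31.2 ± 0.871 CPM in PreIP_Chat, 8.88 ± 3.14 in TRAP_Chat, 31.8 ± 6.81 in PreIP_Snap25 and 44.0 ± 17.5 in TRAP_Snap25. The last mean rests on 1 library, since the TRAP_Snap25 sums were 33.1, 34.6 and 64.2, the highest in replicate 3, where Otp was also highest. Inhibitory transmitter genes moved beside them, with 5 of 5 lower in TRAP_Chat than in its input and 4 of 5 lower than in TRAP_Snap25. Slc32a1, the vesicular transporter of GABA and glycine, was 7.46-fold lower in TRAP_Chat than in TRAP_Snap25, and Slc6a5, the glycine transporter of glycinergic neurons, was 6.54-fold lower.

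Pax2, a paired-domain factor that inhibitory dorsal neurons need, was the most abundant of the list. It was 60.3, 63.5 and 68.8 CPM in PreIP_Chat and 11.4, 6.12 and 22.5 CPM in TRAP_Chat. It was 93.8, 65.8 and 40.5 CPM in PreIP_Snap25 and 69.1, 69.5 and 83.3 CPM in TRAP_Snap25. The TRAP_Chat libraries lay below all 9 others. Pax2 fell 4.78-fold against the input (log2 fold change -2.26 ± 0.38, edgeR adjusted p = 0.000622) and was 5.51-fold lower than in TRAP_Snap25 (-2.46 ± 0.39, adjusted p = 0.000956). In TRAP_Snap25 against its input it had a log2 fold change of 0.15 ± 0.36 (edgeR adjusted p = 0.812). That value turned to -0.12 without PreIP_Snap25 replicate 3. Its relative Pax8 was 25.2, 18.5 and 15.9 CPM in PreIP_Chat, 8.10, 10.3 and 7.39 in TRAP_Chat, 17.0, 15.7 and 12.8 in PreIP_Snap25 and 15.9, 27.3 and 27.2 in TRAP_Snap25. Pax8 was 2.73-fold lower in TRAP_Chat than in TRAP_Snap25 (log2 fold change -1.45 ± 0.31, edgeR adjusted p = 0.0093), with no overlap of libraries.

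Otp, a homeodomain factor of dorsal and ventral interneurons, was spread unevenly over the Snap25 pulldown. It was 8.73, 5.76 and 8.31 CPM in PreIP_Chat and 0.803, 0.151 and 3.38 CPM in TRAP_Chat. It was 10.1, 10.7 and 8.93 CPM in PreIP_Snap25 and 14.2, 15.7 and 87.2 CPM in TRAP_Snap25. The Snap25 pulldown lay above its input in all 3 libraries, 1 of them far above the other 2, and the Chat pulldown lay below its input in all 3. Between the pulldowns Otp was 25.8-fold lower in TRAP_Chat (log2 fold change -4.69 ± 0.80, edgeR adjusted p = 0.00187). Without TRAP_Snap25 replicate 3 the log2 fold change was -3.32 (edgeR adjusted p = 0.00529), and without TRAP_Chat replicate 3 it was -6.27 (adjusted p = 0.0011). Against the inputs the log2 fold change was -2.33 ± 0.74 in the Chat line (edgeR adjusted p = 0.0284) and 1.97 ± 0.69 in the Snap25 line (adjusted p = 0.0503). The latter was called with mitochondrial genes left out (edgeR adjusted p = 0.0419) and without any one of the TRAP_Chat libraries or TRAP_Snap25 replicates 1 and 2 (from 0.0265 to 0.0471). The call in the Chat line was lost without any one of PreIP_Chat replicates 1 and 3 and TRAP_Chat replicates 1 and 2, with edgeR adjusted p from 0.0677 to 0.0887.

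Lhx1 and Lhx5 are LIM homeodomain factors that act together in inhibitory dorsal neurons and in other classes. Lhx1 was 8.30, 12.2 and 8.57 CPM in PreIP_Chat, 1.67, 1.06 and 3.75 in TRAP_Chat, 11.9, 9.0 and 4.95 in PreIP_Snap25 and 11.3, 2.57 and 13.5 in TRAP_Snap25. Lhx5 was 4.03, 2.10 and 4.34 CPM in PreIP_Chat, 0.803, 0.982 and 1.56 in TRAP_Chat, 3.85, 3.69 and 3.32 in PreIP_Snap25 and 4.26, 6.08 and 2.85 in TRAP_Snap25. The pulldowns overlapped for Lhx1, because of TRAP_Snap25 replicate 2, and did not for Lhx5. Their log2 fold changes between the pulldowns were -2.05 ± 0.59 and -1.97 ± 0.53 (edgeR adjusted p = 0.0443 and 0.0338). These calls stood close to the threshold. The Lhx1 call was lost in 10 of 12 fits that left out 1 library, all but those without TRAP_Chat replicate 3 or TRAP_Snap25 replicate 2 (edgeR adjusted p from 0.0524 to 0.138). The Lhx5 call was lost without any one of PreIP_Chat replicates 1 and 3, TRAP_Chat replicates 1 and 2, PreIP_Snap25 replicates 1 and 2 and TRAP_Snap25 replicates 1 and 2 (edgeR adjusted p from 0.0511 to 0.109). Both fell in TRAP_Chat against its input (log2 fold changes -2.15 ± 0.58 and -1.63 ± 0.53, edgeR adjusted p = 0.0126 and 0.0301). There the Lhx1 call was lost without TRAP_Chat replicate 2 (edgeR adjusted p = 0.0546), and the Lhx5 call without PreIP_Chat replicate 1 or 3 or TRAP_Chat replicate 1 or 2 (adjusted p from 0.0743 to 0.105). Gm27199, on the opposite strand of Lhx5, overlaps 69 of its exon bases and had 412 counts in all.

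Gbx1, a gastrulation brain homeobox factor of dorsal inhibitory neurons, was 4.46, 3.76 and 4.81 CPM in PreIP_Chat, 0.433, 1.36 and 1.67 in TRAP_Chat, 3.13, 4.47 and 5.67 in PreIP_Snap25 and 3.53, 4.91 and 5.29 in TRAP_Snap25. It was 3.94-fold lower in TRAP_Chat than in TRAP_Snap25 (log2 fold change -1.98 ± 0.54, edgeR adjusted p = 0.0349). That call was lost in 8 of 12 fits that left out 1 library (edgeR adjusted p from 0.0521 to 0.0829), and kept without TRAP_Chat replicate 3, PreIP_Snap25 replicate 1 or 3, or TRAP_Snap25 replicate 1. The related Gbx2 had a log2 fold change of -0.48 ± 0.56 there, and the difference between the 2 genes was not tested.

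Sall3, a spalt-like zinc finger factor, was 34.4, 31.1 and 27.2 CPM in PreIP_Chat and 1.79, 1.59 and 7.81 CPM in TRAP_Chat. It was 28.5, 27.7 and 23.3 CPM in PreIP_Snap25 and 12.9, 12.9 and 16.9 CPM in TRAP_Snap25. Both pulldowns lay wholly below their inputs, and the Chat pulldown below the Snap25 pulldown. The fall in the Chat line passed the test (log2 fold change -3.03 ± 0.47, edgeR adjusted p = 0.000314). In the Snap25 line it was -0.90 ± 0.43 (edgeR adjusted p = 0.148), called by limma voom (0.0439) and by edgeR without TRAP_Chat replicate 3 (0.0219). The difference between those changes did not pass edgeR (adjusted p = 0.121) but passed DESeq2 (0.0269), limma voom (0.0364) and edgeR without TRAP_Chat replicate 3 (0.00627). Sall3 was 3.75-fold lower in TRAP_Chat than in TRAP_Snap25 (edgeR adjusted p = 0.0177), a call lost without TRAP_Chat replicate 1 (adjusted p = 0.0619) or 2 (0.0637).

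Tfap2b, an AP-2 factor of inhibitory dorsal neurons, was 5.01, 6.48 and 8.31 CPM in PreIP_Chat, 1.85, 1.66 and 0.677 in TRAP_Chat, 6.27, 12 and 6.32 in PreIP_Snap25 and 9.04, 5.53 and 4.37 in TRAP_Snap25. Nr4a2, an orphan nuclear receptor, was 5.62, 4.32 and 4.07 CPM in PreIP_Chat, 1.92, 0.982 and 1.41 in TRAP_Chat, 7.04, 5.76 and 5.87 in PreIP_Snap25 and 5.66, 7.98 and 3.86 in TRAP_Snap25. For both genes the TRAP_Chat libraries were the lowest 3 of the 12. Between the pulldowns the log2 fold changes were -2.18 ± 0.50 for Tfap2b and -2.02 ± 0.46 for Nr4a2 (edgeR adjusted p = 0.0145 and 0.0134). The Tfap2b call was lost without TRAP_Chat replicate 3 (edgeR adjusted p = 0.0505) or TRAP_Snap25 replicate 1 (0.0518), and the Nr4a2 call without TRAP_Snap25 replicate 2 (0.0522). Bhlhe22 had a log2 fold change of -0.87 ± 0.53 between the pulldowns (edgeR adjusted p = 0.369). Sp8, a zinc finger factor, was not tested, with at most 0.775 CPM in any library.

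**Figure D3:**
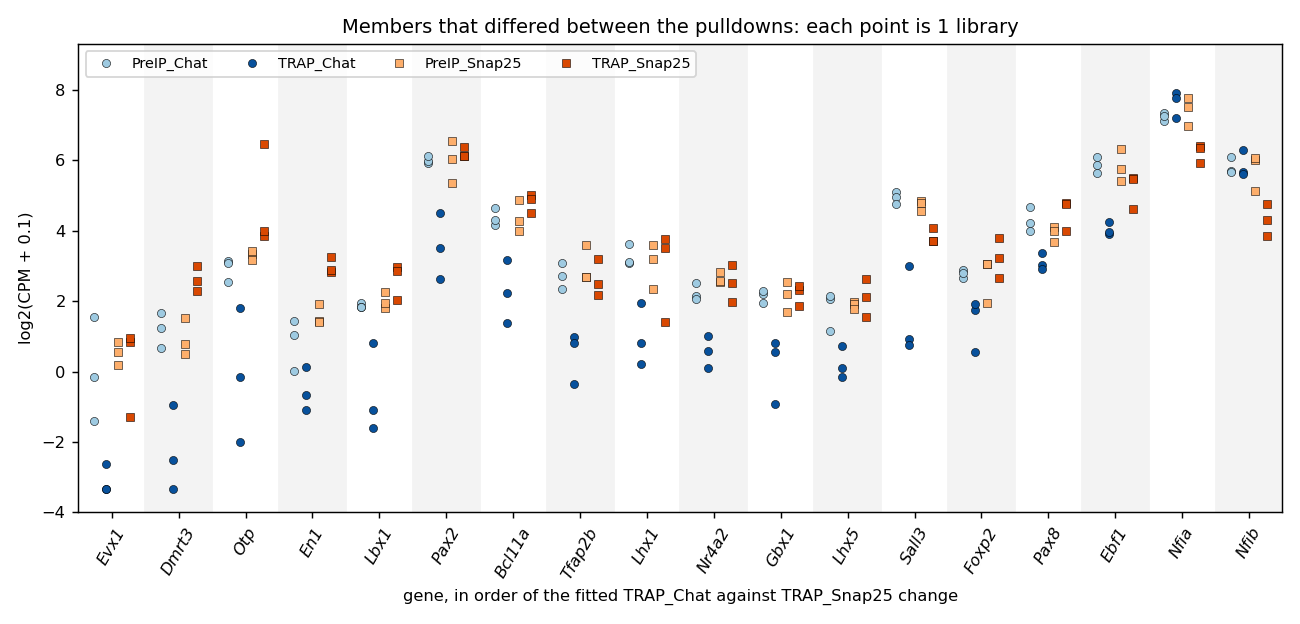
Each point is log2(CPM + 0.1) in 1 library, for the 18 members that differed between the pulldowns, ordered by fitted fold change. For the lower members the TRAP_Chat libraries lie below the TRAP_Snap25 libraries except in Lhx1, and for Nfia and Nfib at the right the TRAP_Snap25 libraries lie below them.

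Of the 4 dorsal excitatory factors 3 fell in TRAP_Chat against its input and edgeR called none in the Snap25 pulldown against its input. Lbx1, a homeodomain factor of the dorsal classes that form both excitatory and inhibitory neurons, was 3.79, 3.43 and 3.49 CPM in PreIP_Chat and 1.67, 0.227 and 0.364 CPM in TRAP_Chat. It was 4.73, 3.37 and 3.78 CPM in PreIP_Snap25 and 3.97, 7.65 and 7.12 CPM in TRAP_Snap25. The TRAP_Chat libraries were again the lowest 3, with replicate 1 above the other 2. Lbx1 was 8.17-fold lower in TRAP_Chat than in TRAP_Snap25 (log2 fold change -3.03 ± 0.64, edgeR adjusted p = 0.00906). Its fall against the input (-2.23 ± 0.63, adjusted p = 0.0154) was lost without TRAP_Chat replicate 2 (edgeR adjusted p = 0.0523) or 3 (0.0577).

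Lmx1b, a LIM homeodomain factor of excitatory dorsal neurons, was 25.7, 13.7 and 12.1 CPM in PreIP_Chat, 8.34, 5.14 and 4.69 in TRAP_Chat, 15.5, 14.5 and 9.91 in PreIP_Snap25 and 7.79, 7.81 and 9.36 in TRAP_Snap25. Both pulldowns lay below their inputs, and the 2 pulldowns overlapped. The fall in the Chat line passed (log2 fold change -1.5 ± 0.37, edgeR adjusted p = 0.00705) but not without PreIP_Chat replicate 1 (adjusted p = 0.057). In the Snap25 line the log2 fold change was -0.68 ± 0.36 (edgeR adjusted p = 0.193). Tlx3, the switch factor for the excitatory fate, was at most 1.92 CPM in any library and fell in TRAP_Chat (log2 fold change -2.75 ± 0.90, edgeR adjusted p = 0.0313). That call was lost without any one of the 3 PreIP_Chat libraries, TRAP_Chat replicates 2 and 3 or PreIP_Snap25 replicate 1 (edgeR adjusted p from 0.0508 to 0.112). Prrxl1, a homeodomain factor of nociceptive circuits, had log2 fold changes of -0.40 and 0.15 against the inputs and was not called. Slc17a6, the vesicular glutamate transporter of these neurons, was 4.57-fold lower in TRAP_Chat than in TRAP_Snap25. It is 1 of 4 excitatory transmitter genes looked at, which did not fall as a group. Of the 4, 2 were lower in TRAP_Chat than in its input and 2 lower than in TRAP_Snap25. Their summed level in TRAP_Chat was 77.4%, 86.9% and 97.0% of the input mean.

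Of the 3 tested factors of the deep dorsal horn, Rorb fell in TRAP_Chat against its input and edgeR called none in TRAP_Snap25. Rora, a nuclear receptor, was 45.9, 58.1 and 64.0 CPM in PreIP_Chat, 47.0, 57.3 and 51.4 in TRAP_Chat, 60.6, 110 and 38.2 in PreIP_Snap25 and 46.9, 68.0 and 37.3 in TRAP_Snap25. All 4 groups overlapped, and the log2 fold change was -0.11 ± 0.32 in the Chat line and -0.45 ± 0.32 in the Snap25 line (edgeR adjusted p = 0.829 and 0.344). The latter turned to 0.031 without PreIP_Snap25 replicate 2. Rorb, its relative, was 30.9, 38.4 and 39.3 CPM in PreIP_Chat and 17.1, 12.8 and 11.2 CPM in TRAP_Chat, and fell 2.64-fold (log2 fold change -1.40 ± 0.31, edgeR adjusted p = 0.00404). In the Snap25 line Rorb was 36.3, 57.1 and 29.1 CPM in PreIP_Snap25 and 20.8, 30.5 and 15.8 CPM in TRAP_Snap25, with an overlap of 1 library. Its log2 fold change there was -0.87 ± 0.31 (edgeR adjusted p = 0.0529), and it was called by DESeq2 (0.0316) and by edgeR without TRAP_Chat replicate 1 (0.048), PreIP_Snap25 replicate 3 (0.0328) or TRAP_Snap25 replicate 2 (0.0285). Maf, a bZIP factor of touch circuits, was 32.9, 34.7 and 27 CPM in PreIP_Chat and 56.1, 42.5 and 54.8 CPM in TRAP_Chat, with 43.3, 35.7 and 18.9 CPM in PreIP_Snap25 and 35.6, 28.9 and 29.5 CPM in TRAP_Snap25. Its TRAP_Chat libraries lay above PreIP_Chat and TRAP_Snap25 and overlapped PreIP_Snap25, and edgeR called neither of the first 2 differences (log2 fold change 0.70 ± 0.28, adjusted p = 0.0752, and 0.71 ± 0.28, adjusted p = 0.149). Maf passed against the input when only those 6 libraries were fitted (edgeR adjusted p = 0.0251). Mafa was not tested.

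Of the 6 birth time and position factors 2, Nfia and Nfib, were higher in TRAP_Chat than in TRAP_Snap25 and none was lower. In TRAP_Snap25 against its input 4 of the 6 fell, namely Nfia, Nfib, Zfhx3 and Onecut2, whereas 2, Zfhx3 and Zfhx4, fell in TRAP_Chat. Nfia and Nfib are nuclear factor I genes, which mark later-born neurons and are also made by astrocytes and oligodendrocyte precursors. Nfia was 139, 162 and 153 CPM in PreIP_Chat and 145, 240 and 216 CPM in TRAP_Chat. It was 184, 217 and 125 CPM in PreIP_Snap25 and 85.4, 81.8 and 60.2 CPM in TRAP_Snap25. The Snap25 pulldown lay below all other libraries, while the Chat pulldown overlapped its input. Nfia was 2.64-fold higher in TRAP_Chat than in TRAP_Snap25 (log2 fold change 1.40 ± 0.26, edgeR adjusted p = 0.0035). It fell 2.31-fold in TRAP_Snap25 against its input (-1.21 ± 0.26, adjusted p = 0.00409) and had 0.40 ± 0.25 in the Chat line (adjusted p = 0.255).

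Nfib followed the same course. It was 51.8, 67.5 and 50.2 CPM in PreIP_Chat, 50.9, 78.9 and 49.1 in TRAP_Chat, 64.7, 66.5 and 34.6 in PreIP_Snap25 and 19.5, 26.8 and 14.4 in TRAP_Snap25. It was 2.93-fold higher in TRAP_Chat than in TRAP_Snap25 (log2 fold change 1.55 ± 0.31, edgeR adjusted p = 0.006) and fell 2.72-fold in the Snap25 line (-1.44 ± 0.31, adjusted p = 0.00412). In the Chat line its log2 fold change was 0.08 ± 0.30. Astrocyte markers summed to between 698 and 1264 CPM in TRAP_Chat and to between 1117 and 1966 CPM in TRAP_Snap25. None of 10 oligodendrocyte and 8 precursor markers was called between the pulldowns, and of 10 astrocyte markers 1 was higher and 1 lower (median -0.01 on the log2 scale). The part of glial RNA in the Nfia and Nfib levels was not tested. Nfix, another gene of the family that is not a member, fell in both lines, 3.20-fold in TRAP_Chat and 5.31-fold in TRAP_Snap25, and was not called between the pulldowns (edgeR adjusted p = 0.112).

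Zfhx3, a large zinc finger homeodomain factor, fell in both lines, with log2 fold changes of -1.46 ± 0.25 and -1.13 ± 0.25 (edgeR adjusted p = 0.000686 and 0.00488). Its relative Zfhx4 fell in the Chat line (-1.85 ± 0.35, edgeR adjusted p = 0.00126) and had -0.75 ± 0.34 in the Snap25 line (adjusted p = 0.122). Onecut2 fell in the Snap25 line (-1.84 ± 0.55, edgeR adjusted p = 0.0236), where the libraries overlapped. That call was lost without PreIP_Snap25 replicate 2 (edgeR adjusted p = 0.184) or TRAP_Snap25 replicate 2 (0.0857) or 3 (0.0617). Onecut1 stayed under 1 CPM in every library.

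**Figure D4:**
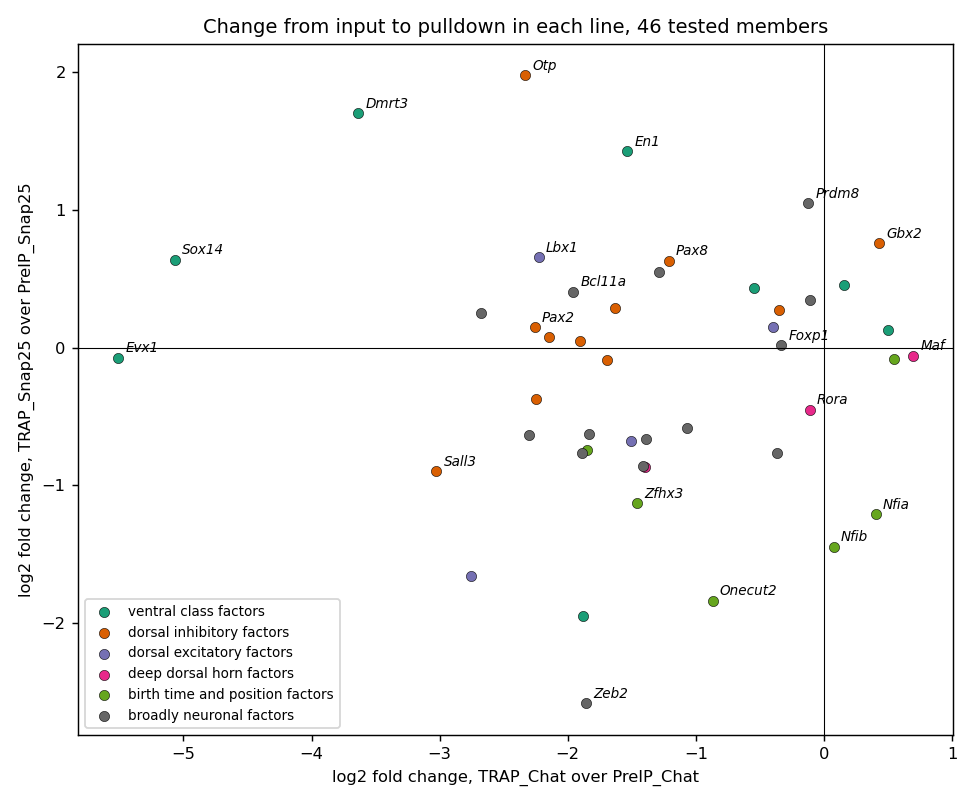
Each point is 1 of the 46 tested members, with the log2 fold change from input to pulldown in the Chat line on the horizontal axis and in the Snap25 line on the vertical axis, coloured by role list. Dmrt3, Otp and En1 lie at the upper left, lower in TRAP_Chat and higher in TRAP_Snap25 on the fitted scale, while Nfia and Nfib lie at the lower right.

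Of the 14 broadly neuronal factors, which act in many classes, 8 fell in TRAP_Chat against its input and 1, Zeb2, fell in TRAP_Snap25. Bcl11a, a zinc finger factor of dorsal horn neurons, was 24.7, 17.9 and 19.5 CPM in PreIP_Chat and 8.84, 2.49 and 4.58 CPM in TRAP_Chat. It was 19.2, 28.9 and 15.8 CPM in PreIP_Snap25 and 22.6, 32.5 and 29.6 CPM in TRAP_Snap25. The TRAP_Chat libraries lay below all 9 others. Bcl11a fell 3.89-fold against its input (log2 fold change -1.96 ± 0.39, edgeR adjusted p = 0.00194) and was 5.30-fold lower than in TRAP_Snap25 (-2.41 ± 0.40, adjusted p = 0.00146). Its relative Bcl11b had -0.09 ± 0.53 between the pulldowns (edgeR adjusted p = 0.953). Against the Chat input Bcl11b lay wholly below, at -1.41 ± 0.53 (edgeR adjusted p = 0.058), and was called by DESeq2 (0.0263), by limma voom (0.0113) and by edgeR without TRAP_Chat replicate 2 (0.00607) or TRAP_Snap25 replicate 1 (0.049) or 3 (0.0419).

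Foxp2, a forkhead factor of V1 and other interneurons, was 6.23, 7.31 and 6.82 CPM in PreIP_Chat, 3.28, 1.36 and 3.64 in TRAP_Chat, 8.13, 8.22 and 3.71 in PreIP_Snap25 and 9.33, 13.7 and 6.2 in TRAP_Snap25. It was 3.51-fold lower in TRAP_Chat than in TRAP_Snap25 (log2 fold change -1.81 ± 0.47, edgeR adjusted p = 0.0275). That call was lost without TRAP_Chat replicate 2 (edgeR adjusted p = 0.0876) or TRAP_Snap25 replicate 2 (0.104). Its fall against the input (-1.29 ± 0.46, adjusted p = 0.049) was lost in 9 of the 12 fits without 1 library and kept without PreIP_Snap25 replicate 3 or TRAP_Snap25 replicate 2 or 3 (highest edgeR adjusted p 0.166). Foxp1, which limb motor neurons also use, had log2 fold changes of -0.33 and 0.02 against the inputs, and Foxp4 had -0.11 and 0.35. Neither was called in any of the comparisons.

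All 3 EBF genes, helix-loop-helix factors of neuronal differentiation, fell in the Chat line. Ebf1 was 58.7, 68.5 and 49.2 CPM in PreIP_Chat and 19.0, 15 and 15.6 CPM in TRAP_Chat. It was 53.6, 80.1 and 42.6 CPM in PreIP_Snap25 and 45.3, 44.0 and 24.6 CPM in TRAP_Snap25. Its TRAP_Chat libraries were the lowest 3 of the 12. The log2 fold changes against the Chat input were -1.83 ± 0.30 for Ebf1, -1.89 ± 0.42 for Ebf2 and -1.07 ± 0.27 for Ebf3 (edgeR adjusted p = 0.000439, 0.00384 and 0.00808). Between the pulldowns Ebf1 was 2.30-fold lower in TRAP_Chat (edgeR adjusted p = 0.0194), a call lost without TRAP_Chat replicate 2 or 3 or TRAP_Snap25 replicate 1 or 2 (adjusted p from 0.061 to 0.0738). Ebf2 and Ebf3 were not called there (edgeR adjusted p = 0.0995 and 0.103). Ebf2 was called lower by DESeq2 (adjusted p = 0.0456) and by edgeR without a low-count filter (0.0337) or without TRAP_Chat replicate 3 (0.0436). Ebf3 was called by edgeR without TRAP_Chat replicate 1 (adjusted p = 0.049998) or TRAP_Snap25 replicate 3 (0.0384). Whether the EBF genes differ from one another was not tested.

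Zeb2, a zinc finger repressor that is made by neurons and, in larger amounts, by oligodendrocytes and microglia, fell in both lines. It was 169, 192 and 213 CPM in PreIP_Chat and 86.0, 22.3 and 50.5 CPM in TRAP_Chat. It was 211, 264 and 150 CPM in PreIP_Snap25 and 35.0, 44.2 and 25.0 CPM in TRAP_Snap25. Every pulldown library lay below every input library. The log2 fold changes were -1.86 ± 0.37 in the Chat line (edgeR adjusted p = 0.00211) and -2.58 ± 0.39 in the Snap25 line (adjusted p = 0.000388), the largest fall among members there. All 10 oligodendrocyte markers fell in both lines, and of 10 microglial markers 7 fell in the Chat line and 8 in the Snap25 line. In TRAP_Chat, Zeb2 and the oligodendrocyte sum were both highest in replicate 1 and lowest in replicate 2, whereas in TRAP_Snap25 the order was the reverse. The part of glial RNA in the Zeb2 change was not tested.

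The other factors of this list fell in the Chat line or were not called. Tshz1 fell 2.62-fold and Skor1, a corepressor of dorsal neurons, 6.41-fold in TRAP_Chat (edgeR adjusted p = 0.00279 and 0.0201). The Skor1 call was lost without PreIP_Chat replicate 1 (edgeR adjusted p = 0.0636) or TRAP_Chat replicate 1 (0.0519). Skor2 had a log2 fold change of -2.31 ± 0.87 there (edgeR adjusted p = 0.0581), Satb1 had -0.37 and Prdm8 had -0.12. DESeq2 (adjusted p = 0.0139) and limma voom (0.0156) called Skor2 lower. So did edgeR without a low-count filter (0.0281), with the replicate block (0.041), or without TRAP_Chat replicate 2 (0.0378) or TRAP_Snap25 replicate 3 (0.0478). Between the pulldowns edgeR did not call Skor1, whereas DESeq2 (adjusted p = 0.00736) and limma voom (0.0353) called it lower in TRAP_Chat.

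**Figure D5:**
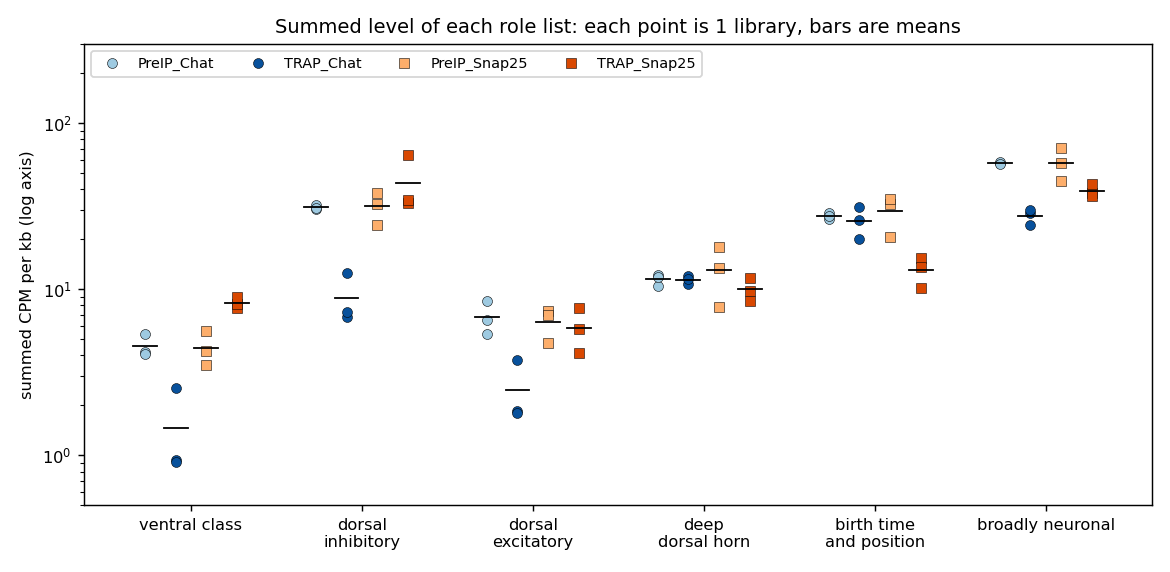
Each point is the summed CPM per kb of exon of 1 role list in 1 library, on a log axis, and bars are group means. The ventral and dorsal inhibitory lists are lowest in TRAP_Chat and highest in TRAP_Snap25 on average. The high TRAP_Snap25 mean comes mainly from En1 and Dmrt3 in the ventral list and from 1 library in the dorsal inhibitory list. The deep dorsal horn list overlaps between pulldown and input in both lines. The birth time and position list is lowest in TRAP_Snap25.

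Per kb of exon, the scale on which genes can be set side by side, the order of members differed between the pulldowns. In TRAP_Chat the highest level was that of Nfia at 18.4 ± 4.51 CPM per kb, followed by Foxp4 at 6.84 ± 2.07, Maf at 6.21 ± 0.906 and Ebf3 at 5.81 ± 1.70. The last 3 did not differ beyond their spread. In TRAP_Snap25 Pax2 stood highest at 13.7 ± 1.49 CPM per kb, with Otp at 13.5 ± 14.5, a mean set by 1 library, Ebf3 at 9.80 ± 2.23, Foxp4 at 7.19 ± 4.15 and Nfia at 6.96 ± 1.25. In both inputs the first 4 were Nfia, Ebf3, Pax2 and Zeb2, at 13.9, 12.2, 11.9 and 9.61 CPM per kb in PreIP_Chat. The lowest were Sim1, Onecut1, Evx2 and Mafa in PreIP_Chat, none above 0.103 CPM per kb.

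By sums per kb, ventral factors were 4.55 ± 0.736 CPM in PreIP_Chat and 1.46 ± 0.926 in TRAP_Chat, against 4.44 ± 1.06 in PreIP_Snap25 and 8.27 ± 0.647 in TRAP_Snap25. Each pulldown lay clear of its input, on opposite sides. In the Snap25 line the rise came mainly from En1, from 1.12 to 3.02 CPM per kb on average, and Dmrt3, from 0.773 to 2.53. The next largest gain was that of Shox2, from 0.960 to 1.29, and Gata2 went down from 0.493 to 0.135. Dorsal excitatory factors were 6.80 ± 1.55 and 2.47 ± 1.10 CPM per kb in the Chat line and 6.38 ± 1.44 and 5.86 ± 1.82 in the Snap25 line. Deep dorsal horn factors were 11.5 ± 0.938 and 11.5 ± 0.687 in the Chat line and 13.1 ± 5.10 and 10 ± 1.64 in the Snap25 line. Birth time and position factors were 27.6 ± 1.27 and 25.9 ± 5.53 in the Chat line and 29.5 ± 7.62 and 13.0 ± 2.62 in the Snap25 line. Each of these sums was given as a description, with no test.

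Whether the change from input to pulldown differed between the lines was tested with an interaction term. It was called for 5 of the 46 members, 4 lower in the Chat line and 1 higher, where 0.440% and 0.604% of all tested genes were. The 5 were Dmrt3 (log2 difference -5.34 ± 1.07, edgeR adjusted p = 0.0199), Pax2 (-2.41 ± 0.52, 0.0364), Bcl11a (-2.36 ± 0.54, 0.0425), Pax8 (-1.84 ± 0.43, 0.0496) and Nfia (1.61 ± 0.36, 0.0415). Leaving out any one library among PreIP_Chat replicates 1 and 2 and PreIP_Snap25 replicate 3 brought the 4 lower calls to 0, and leaving out PreIP_Chat replicate 3, TRAP_Chat replicate 2 or PreIP_Snap25 replicate 1 or 2 brought them to between 1 and 2. All 5 were lost in at least 4 of the 12 such fits, with edgeR adjusted p up to 0.162. The median log2 difference was -1.04 for the members and 0.03 for all tested genes. Otp had -4.31 ± 1.02 (edgeR adjusted p = 0.0514), En1 -2.96 ± 0.77 (0.077) and Nfib 1.52 ± 0.43 (0.109).

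The inputs of the lines hold whole cord and were compared as a background. edgeR called none of the 46 members in either direction and none of all tested genes, 0 members were past an unadjusted p of 0.05, and DESeq2 and limma voom called 0 members. Levels of the 2 inputs did not overlap for 3 members, Sox14 being higher and Otp and Nr4a2 lower in PreIP_Chat, where 4.19% and 3.85% of all tested genes did so.

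The rest of the programme was taken from general knowledge as 50 other factors of spinal classes, of which 39 were tested. This list too was set with earlier results of these data known. In TRAP_Chat against its input 8 rose and 16 fell, or 20.5% and 41.0%, where 12.6% and 14.3% of all tested genes did so. In TRAP_Snap25 against its input 4 rose and 9 fell, where 9.69% and 12.7% of all tested genes did. Between the pulldowns 3 were higher and 8 lower in TRAP_Chat, where 3.97% and 2.77% of all tested genes were. Lhx4, a LIM homeodomain factor of motor neurons and V2 interneurons, was 13.4, 22.2 and 36.1 CPM in TRAP_Chat and 3.01, 3.68 and 7.93 in TRAP_Snap25, 4.95-fold higher (edgeR adjusted p = 0.00415). Neurod2, a helix-loop-helix factor of excitatory neurons, was 4.25-fold lower in TRAP_Chat, and Zic1, a zinc finger factor of dorsal neurons, was 3.89-fold lower (edgeR adjusted p = 0.00803 and 0.00136). Tal1 and Nfix, both of that list, were named after their values were seen. Tal1, which acts with Gata2 and Gata3 in V2b interneurons, was 0.371, 0.302 and 0.260 CPM in TRAP_Chat and 6.46, 9.88 and 3.97 CPM in TRAP_Snap25, 21.4-fold lower (edgeR adjusted p = 0.000263), whereas Gata2 and Gata3 were not called. All 8 motor neuron markers were higher in TRAP_Chat than in TRAP_Snap25, among them Isl1 by 9.05-fold.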

How the data were processed

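Spinal cord RNA of 2 bacTRAP strains was sequenced in 12 libraries. Per the labels' protocols, tagged ribosomes were pulled down for 4 h at 4 °C, and TRIzol-extracted RNA was amplified (Nugen Ovation V2) and sequenced on a HiSeq2500. The authors deposited raw counts by gene and library, for which the submitters' processing notes name STAR and HTSeq. Not given in the sources used here are versions, genome build, annotation and strandedness, so reads of overlapping antisense genes cannot be told apart. Amplification without molecular identifiers means that counting intervals cover counting error only.

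Of 41736 lines, 824 that repeat another line were dropped. Counts were fitted with edgeR 4.0.16 in R 4.3.3 (filterByExpr, TMM, glmQLFit, glmQLFTest) over all 12 libraries with 1 mean per group, and two-sided p-values were adjusted (Benjamini-Hochberg, 15905 tested genes, threshold 0.05). SE is the log2 fold change over the square root of its F value. CPM are TMM-scaled, and CPM per kb divides by the union of GENCODE M21 exons, matched by gene ID. A total of 46 of the 49 members passed the filter on low counts, and Sim1, Mafa and Sp8 did not. Other settings tried were DESeq2 1.42.0, limma voom (3.58.1), RLE scaling, other filters, mitochondrial genes left out, only the groups compared, a replicate block and each library left out. The filter and the scaling were redone in each fit without 1 library, and these fits tested 16455 to 16578 genes. Calls that changed there can come from the filter as well as from the library, and these were not separated. The method was tested on simulated data with 200 changed genes.

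The members and the lists were chosen with earlier results of these data known. Members past the threshold between the pulldowns or in the interaction, those with the largest change per pulldown and the most abundant of each role list are given in full, and other genes at most 3 a list, apart from those said to be named after their values were seen. Promoters are from RefSeq on GRCm38.p6. The labels do not say that replicates are separate animals, so p-values measure the spread between these libraries, which may be technical. One gene is not reported here.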

Additional observations from a re-analysis of the deposited data

Results flagged for a closer look

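The change from input to pulldown was called different between the Chat and the Snap25 line for 5 of 46 members, by the interaction term of the edgeR fit. Of all tested genes 0.440% were lower and 0.604% higher there. Of the 5 calls 0 were kept in every alternative setting, with Dmrt3 lost in 4 of 19 and Pax8 in 13 of 19. The log2 difference, Chat line minus Snap25 line, was -5.34 for Dmrt3, -2.41 for Pax2, -2.36 for Bcl11a, -1.84 for Pax8 and 1.61 for Nfia. For Dmrt3, all 3 TRAP_Chat libraries lay below their inputs and all 3 TRAP_Snap25 libraries above theirs. For Nfia the Snap25 pulldown lay below its input and the Chat pulldown overlapped its input. No library group here has more than 3 libraries, so single outlying libraries were not tested.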

How the results depend on the processing

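Of 713 fold changes recomputed for named members under the alternatives, 606 kept their direction and side of the threshold, 98 lost the call, 7 gained it and 2 reversed. The reversals, both in TRAP_Snap25 against its input, were Pax2 at -0.12 without PreIP_Snap25 replicate 3 and Rora at 0.031 without PreIP_Snap25 replicate 2, and with 1 library left out Pax2 ranged from -0.12 to 0.47 and Rora from -0.75 to 0.031. Neither was called. Calls were kept in every setting for 17 of 26 members in TRAP_Chat against its input, 4 of 5 in TRAP_Snap25 against its input, 7 of 18 between the pulldowns and 0 of 5 in the interaction.

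With only the groups compared in the fit, TRAP_Chat against its input gave 1 higher member and TRAP_Snap25 against its input 3 higher. The pulldowns gave 5 lower members, with fewer libraries to estimate the spread. Of all tested genes, 2392 of 14905 were higher against the Chat input and 890 of 14673 against the Snap25 input. Between the pulldowns 145 of 14111 were lower, against 441 of 15905 in the reported fit. TRAP_Snap25 against its input gave 2 higher members with DESeq2, 2 with limma voom, 1 without a filter on low counts, 1 with the filter of 1 CPM in 3 libraries and 1 with mitochondrial genes left out. Over all genes these settings gave, in that order, 1880, 1653, 1390, 1588 and 1762 higher, and the reported fit 1541. The interaction gave 2 higher members with DESeq2, 2 without a filter and 2 with the replicate block, and 9 lower members with DESeq2 and 8 without a filter. Over all genes the interaction gave 96 higher and 70 lower in the reported fit. It gave 292 and 209 with DESeq2, 269 and 184 without a filter and 118 and 88 with the replicate block. The cause was not tested. Leaving out 1 library gave 0 to 1 higher and 21 to 28 lower members in TRAP_Chat against its input, 0 to 3 and 4 to 7 in TRAP_Snap25, 2 to 2 and 9 to 16 between the pulldowns, 0 to 1 and 0 to 4 in the interaction, and 0 to 0 in both directions for the inputs. The fall of lower members between the pulldowns to 9 came without TRAP_Chat replicate 2, where 266 of 16550 tested genes were lower.

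Inputs and pulldowns are numbered alike in the labels, and each input has a suffix in its description that its own pulldown repeats. What the suffix marks is not given, and Chat replicate 2 and Snap25 replicate 1 have the same one. Deviations from the group means of same-numbered inputs and pulldowns correlated at 0.060, 0.102 and 0.127 in the Chat line. In the Snap25 line they correlated at -0.037, 0.167 and 0.147. Each Chat input correlated best with the pulldown of its own number, and all other Chat pairs were negative. By contrast, PreIP_Snap25 replicate 1 correlated best with TRAP_Snap25 replicate 3 (0.166). The reported fit did not pair the samples, and whether an input and its pulldown share an animal is not given. Within a line and in the interaction, the replicate block paired each input with the pulldown of its number. Between the pulldowns it joined equal numbers across the lines, and the labels do not say that these belong together. With the replicate block, 8 members fell in TRAP_Snap25 against its input, and 13 were lower between the pulldowns. Of all 15905 tested genes 2119 and 374 did so, against 2017 and 441 in the reported fit. Under it the calls of Tlx3 and Lhx5 in TRAP_Chat against its input (edgeR adjusted p = 0.0548 and 0.0519), of Foxp2, Lhx1 and Lhx5 between the pulldowns (0.0535, 0.0585 and 0.0574) and of Pax8 in the interaction (0.0796) did not pass. Depth limits low members: Evx1, Sox14, Sim1, Dmrt3, Tlx3, Mafa and Sp8 were at or under 3 counts in at least 2 TRAP_Chat libraries, where fitted folds depend on the prior count.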
